A study of Rattus norvegicus with 9 samples.

Results

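The 10 genes described here encode the core of the circadian clock and its best known output factor: Arntl, Clock, Nr1d1, Nr1d2, Per1, Per2, Per3, Cry1, Cry2 and Dbp. They were taken by gene symbol from the deposited gene table, where all 10 were found among 20194 genes. The question was whether their levels in the dorsal root ganglion (DRG) differed among sham, spared nerve injury (SNI) and SNI + G15 rats, and whether genes of opposite phase moved in opposite directions, as they do when tissue is taken at different hours of the day.

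RNA-Seq was performed on DRG of adult male Sprague Dawley rats, kept in a light-dark cycle, with 3 libraries per group. SNI is a partial denervation of the hind paw in which only the sural branch of the sciatic nerve stays connected. Sham rats served as the uninjured reference. The SNI + G15 group had the same injury and received G15, an antagonist of the G protein-coupled oestrogen receptor GPER, through an intrathecal catheter implanted on day 5 after SNI, with drug given for 24 h. The labels mark the sham and SNI libraries as the controls for G15, without saying whether these rats carried a catheter or received vehicle, and neither the labels nor the methods give the hour at which the ganglia were collected. The study's sources differ on the number of rats used for RNA-Seq, and the labels neither tie a library to a rat nor say whether rats were pooled, so the p-values below measure the spread between these libraries. The paper names day 5 after SNI for both sampling and drug intervention, without a day of collection for each RNA-Seq group. Drug, catheter, days since injury and hour of collection cannot be told apart in any comparison with the SNI + G15 group if they differed.

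The clock is a transcriptional feedback loop that runs in almost every cell. ARNTL (also called BMAL1) and CLOCK bind E-box sequences and switch on the Per, Cry, Nr1d1, Nr1d2 and Dbp genes; PER and CRY proteins return to block ARNTL and CLOCK, and the REV-ERB receptors made from Nr1d1 and Nr1d2 repress Arntl through ROR elements. In peripheral tissues of rodents Arntl mRNA therefore peaks in roughly the opposite phase to Nr1d1 and Dbp, and the phase is set by light through the suprachiasmatic nucleus, by feeding and by glucocorticoids.

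The sequences through which the loop acts on itself were looked up in the 250 bases upstream of the starts that RefSeq lists on the rat build GRCr8, and 9 of the 10 members had such a window. The motifs searched, on both strands, were CACGTG (the canonical E-box), CACGTT (a variant E-box), TTATGTAA or TTACGTAA (the D-box bound by DBP), AGTAGGTCA (a form of the ROR element bound by REV-ERB) and TGACGTCA (the full cyclic AMP response element). The 3 windows printed here, 5′ to 3′ on the gene's strand with the matched motif in capitals, are those of the repressed arm (Arntl), of one of the 2 starts of its repressor (Nr1d1) and of the Per gene that carried 2 motifs (Per2). They lie at chr1:176766078-176766327 on the plus strand (Arntl), chr10:84229455-84229704 on the minus strand (Nr1d1) and chr9:99496994-99497243 on the minus strand (Per2).
Arntl: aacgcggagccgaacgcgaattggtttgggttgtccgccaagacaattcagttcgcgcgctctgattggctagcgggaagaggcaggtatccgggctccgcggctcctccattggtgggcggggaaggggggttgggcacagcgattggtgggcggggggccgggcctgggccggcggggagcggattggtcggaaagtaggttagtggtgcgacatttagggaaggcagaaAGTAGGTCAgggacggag
Nr1d1: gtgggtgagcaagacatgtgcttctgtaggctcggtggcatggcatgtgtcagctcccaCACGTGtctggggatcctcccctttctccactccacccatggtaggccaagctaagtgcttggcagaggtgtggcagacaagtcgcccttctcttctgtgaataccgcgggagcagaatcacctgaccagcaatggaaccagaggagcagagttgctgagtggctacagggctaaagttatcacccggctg
Per2: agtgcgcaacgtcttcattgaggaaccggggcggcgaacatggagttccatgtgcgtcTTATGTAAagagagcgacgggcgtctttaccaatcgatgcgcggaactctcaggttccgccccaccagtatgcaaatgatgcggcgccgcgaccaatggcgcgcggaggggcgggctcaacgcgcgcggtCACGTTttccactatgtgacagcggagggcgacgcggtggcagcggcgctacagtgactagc
The Arntl window held AGTAGGTCA 18 bases before the start, a motif found in 0.143% of the 33469 windows of this length in the table. The Nr1d1 window held the E-box CACGTG 191 bases before that start, as did 5.59% of all windows. The Per2 window held CACGTT 62 bases before the start (4.07% of all windows have it) and the D-box TTATGTAA 192 bases before it (0.932%). The other start of Nr1d1 and the start of Cry2 each had CACGTT on the reverse strand. None of the motifs was in the windows of Clock, Per1, Per3, Nr1d2 or Dbp, and TGACGTCA, found in 1.59% of all windows, was in none of the members' windows. Other starts of these genes and more distant sequence were not searched.

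Levels are given as FPKM, a fragment count that the authors scaled for library size and transcript length, so that genes can be compared with one another. Differences between groups were tested on the estimated read counts with edgeR's quasi-likelihood test over the 14305 genes that reached an FPKM of 1 in at least 1 library, with p-values adjusted over all of them by the Benjamini-Hochberg method; a gene is called when this edgeR adjusted p is below 0.05. All 10 members passed the filter. The comparisons share libraries: each of the groups stands in a pair of them, so they are not independent of each other.

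Library totals were alike, between 18484557 and 18756736 estimated reads. The injury marker Atf3 rose by 5.13 on the log2 scale in SNI and by 5.06 in SNI + G15 against sham, which checks the injury labels. The 9 sensory neuron markers all passed the filter, with summed FPKM between 9966 and 10634 over the 9 libraries. Markers of the suprachiasmatic nucleus, the brain's master clock, were low or absent apart from Vip: Six6 was below the filter, Lhx1 had no row, Avp stayed below an FPKM of 1, and Vip, which injured sensory neurons also make, was listed at 0 in every sham library and at 21.6 to 27.6 FPKM in the others. In bulk RNA, fewer cells of a type and less RNA per cell cannot be told apart.

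All 10 clock genes were detected at low to moderate levels. In sham ganglia Cry2 had the highest level, at 25.2 ± 0.34 FPKM (SD, n = 3), above 75.6% of the tested genes, and Per2 the lowest, at 1.15 ± 0.090 FPKM, above 8.54% of them. Nr1d1 followed Cry2 at 14.8 ± 1.5 FPKM and Dbp came next at 10.01 ± 0.98. Per1 (8.73 ± 0.39), Nr1d2 (7.61 ± 1.0) and Arntl (7.02 ± 0.33 FPKM) formed a middle group in which the ranges of Per1 and Nr1d2, and of Nr1d2 and Arntl, overlapped. Clock had 3.96 ± 0.29 FPKM, and Cry1 (2.60 ± 0.22) and Per3 (2.32 ± 0.40) overlapped below it. In SNI + G15 ganglia the order of the middle group was different: Arntl stood in rank 3 and Dbp in rank 5, with Per1 between them and overlapping both.

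**Figure D1:**
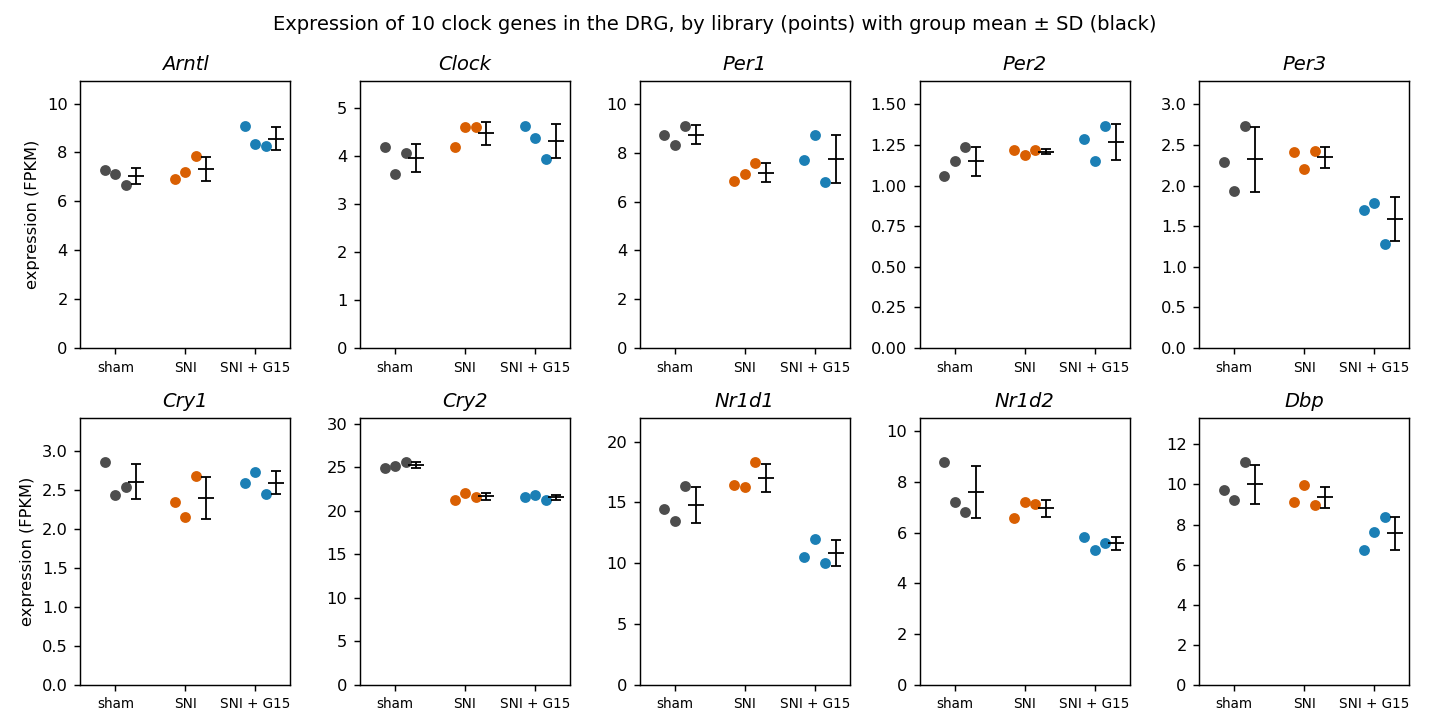
FPKM of the 10 clock genes (vertical axes, each starting at 0) in the 3 sham, 3 SNI and 3 SNI + G15 libraries; points are libraries and black marks the group mean ± SD. Nr1d1, Nr1d2, Per3 and Dbp lie lower in all SNI + G15 libraries than in every library of the other groups, Arntl lies higher, and Cry2 is lower in both injured groups than in sham.

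Across the 3 groups, 7 of the 10 members differed in a single test of any difference, against 53.4% of all tested genes: Cry2, Nr1d1, Nr1d2, Dbp, Per1, Per3 and Arntl. A share of this size is not far from the background of this series, in which injury moved much of the transcriptome. Clock, Per2 and Cry1 were not called (edgeR adjusted p = 0.238, 0.489 and 0.352). For Cry2 the sham libraries stood apart from all others, and for Nr1d1, Nr1d2, Per3, Dbp and Arntl the SNI + G15 libraries did.

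Injury alone was asked first, by comparing SNI with sham. In this comparison 3 of the 10 members were called, all lower in SNI (Cry2, Per1 and Dbp), and none was higher. Among all tested genes 45.7% were called, 22.4% lower and 23.3% higher, so 3 of 10 is no more than the background. The FPKM ranges of 3 members did not overlap (Cry2, Per1 and Clock), against 53.9% of all genes. The median log2 fold change of the members was -0.07, beside 0.00 for all genes.

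G15 after injury was asked next, by comparing SNI + G15 with SNI. Again 3 of 10 members were called, all lower with G15 (Nr1d1, Nr1d2 and Per3), where 15.2% of all genes were called, 7.25% lower and 7.98% higher. The ranges of 5 members did not overlap (Nr1d1, Nr1d2, Per3, Dbp and Arntl), against 38.3% of all genes. The median log2 fold change of the members was -0.02, since the genes that were lower stood beside others near or above 0. The median size of the change without its sign was 0.15 for the members and 0.12 for all genes.

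Comparing SNI + G15 with sham gave 7 called members, 6 lower (Nr1d1, Nr1d2, Dbp, Per3, Cry2 and Per1) and 1 higher (Arntl). Here 43.2% of all genes were called, 21.9% lower and 21.4% higher, and 52.9% had ranges that did not overlap, as 6 of the members did. The median log2 fold change of the members was -0.25. The corresponding median of all genes was 0.00.

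**Figure D2:**
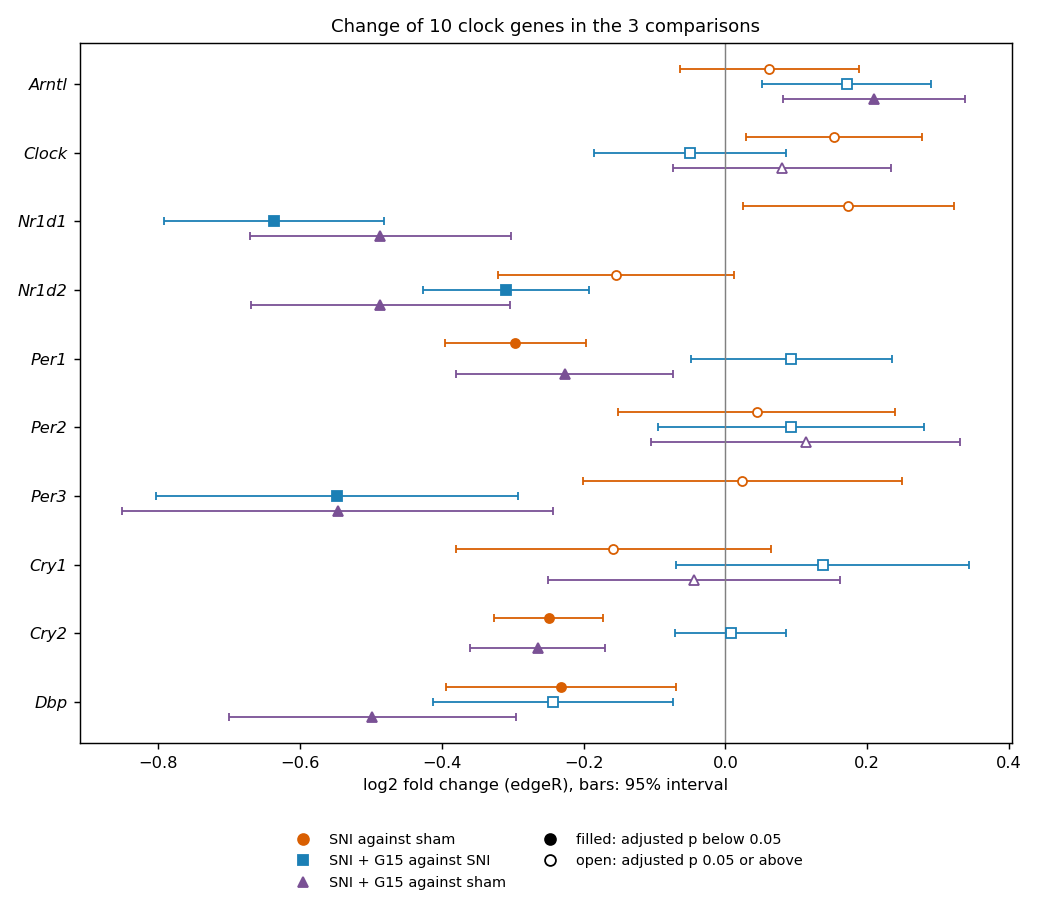
Log2 fold change of each clock gene (horizontal axis) in the 3 comparisons, from edgeR. Bars are 95% intervals by a normal approximation (1.96 standard errors to each side), narrower than the test would give, and filled symbols have an adjusted p below 0.05. With G15, Nr1d1, Nr1d2 and Per3 lie to the left of 0 (-0.64, -0.31 and -0.55 against SNI) and Arntl to the right (0.17), while Cry2 and Per1 are at -0.25 and -0.30 in SNI against sham and near 0 between the injured groups.

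Arntl (NCBI gene 29657), the obligate partner of CLOCK and the gene whose loss stops the clock, was at 7.29, 7.13 and 6.65 FPKM in the sham libraries. It was at 6.92, 7.21 and 7.87 FPKM in SNI and at 9.10, 8.33 and 8.28 FPKM in SNI + G15. Sham and SNI overlapped, and all SNI + G15 libraries lay above both. Its log2 fold change was 0.06 ± 0.06 (SE) in SNI against sham (edgeR adjusted p = 0.466) and 0.17 ± 0.06 in SNI + G15 against SNI (adjusted p = 0.0903). Against sham, Arntl was 15.6% higher in SNI + G15 (log2 fold change 0.21 ± 0.07, edgeR adjusted p = 0.0262). That call was lost with DESeq2 (adjusted p = 0.103) and when sham library 2 or 3, or SNI + G15 library 1 or 2, was left out (edgeR adjusted p between 0.0554 and 0.0978).

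Clock (NCBI gene 60447), which encodes the partner that binds the E-box with ARNTL, ranged from 3.63 to 4.19 FPKM in sham, from 4.20 to 4.62 after SNI and from 3.95 to 4.64 with G15. The SNI libraries lay just above the sham libraries and the SNI + G15 libraries spanned both. It was not called in any comparison, with log2 fold changes of 0.15 ± 0.06 in SNI against sham (edgeR adjusted p = 0.0726), -0.05 ± 0.07 in SNI + G15 against SNI (adjusted p = 0.649) and 0.08 ± 0.08 against sham (adjusted p = 0.447). The first of these was called without sham library 1 or SNI library 1 (edgeR adjusted p = 0.0447 and 0.0488). With an offset for gene length the last was called (edgeR adjusted p = 0.0120); Clock has the longest transcripts of the members, with an effective length of 9606 bases. The estimated counts of Clock were not whole in 8 of the 9 libraries, which happens where reads are divided between overlapping or similar sequences, so its values are less certain.

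Nr1d1 (NCBI gene 252917) encodes REV-ERBα, the haem-binding receptor that represses Arntl, and its fall in SNI + G15 against SNI had the largest estimate among the members. Its levels were 14.49, 13.45 and 16.34 FPKM in sham and 16.44, 16.24 and 18.30 FPKM in SNI. They were 10.47, 12.01 and 9.99 FPKM in SNI + G15. The highest SNI + G15 library was below the lowest library of either other group, and sham and SNI overlapped. Nr1d1 fell by 35.7% against SNI (log2 fold change -0.64 ± 0.08, edgeR adjusted p = 0.00132) and by 28.6% against sham (-0.49 ± 0.09, adjusted p = 0.00213). Both calls held in all 16 alternative fits run for each. In SNI against sham its log2 fold change was 0.17 ± 0.08 (edgeR adjusted p = 0.0868), and this was called higher without sham library 3 (0.26, adjusted p = 0.0158) and with a replicate block (0.18, adjusted p = 0.0231).

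In the RefSeq annotation of GRCr8 the 3′ end of Nr1d1 overlaps that of Thra, a thyroid hormone receptor gene on the opposite strand, and the estimated counts of Nr1d1 were not whole in any library. Thra ranged from 81.3 to 85.5 FPKM in sham, from 65.9 to 67.8 after SNI and from 63.9 to 66.1 with G15. It fell in SNI against sham (log2 fold change -0.35 ± 0.04, edgeR adjusted p = 3.23e-05). Between SNI + G15 and SNI, where Nr1d1 fell, Thra had a log2 fold change of -0.03 ± 0.04 (adjusted p = 0.648). In SNI + G15 against sham, where Nr1d1 also fell, Thra was lower too (log2 fold change -0.43 to -0.39 when a library was left out). The part of the overlap in the level of Nr1d1 was not tested.

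Nr1d2 (NCBI gene 259241) encodes REV-ERBβ, another repressor at the same elements. It was at 8.78, 7.21 and 6.83 FPKM in sham and 6.59, 7.20 and 7.12 in SNI. In SNI + G15 it was at 5.83, 5.32 and 5.58 FPKM. As for Nr1d1, the SNI + G15 libraries lay below all others and sham and SNI overlapped. Nr1d2 fell by 19.3% against SNI (log2 fold change -0.31 ± 0.06, edgeR adjusted p = 0.0106) and by 28.6% against sham (-0.49 ± 0.09, adjusted p = 0.00206). The first call was lost when SNI library 2 or 3 was left out (edgeR adjusted p = 0.0579 and 0.0545); the second held in all 16 alternative fits. The log2 fold change in SNI against sham was -0.15 ± 0.08 (edgeR adjusted p = 0.164).

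The proteins of the 3 Period genes carry the negative feedback. Per1 (NCBI gene 287422), which also responds directly to cyclic AMP and glucocorticoids, was at 8.74, 8.33 and 9.11 FPKM in sham. It was at 6.86, 7.11 and 7.59 FPKM in SNI and at 7.68, 8.73 and 6.79 FPKM in SNI + G15. The sham and SNI libraries did not overlap, while SNI + G15 was widely spread and overlapped both. Per1 fell by 18.6% in SNI against sham (log2 fold change -0.30 ± 0.05, edgeR adjusted p = 0.000773), a call that held in all 16 alternative fits. Between SNI + G15 and SNI it was not called (0.09 ± 0.07, edgeR adjusted p = 0.405). Against sham it was 14.6% lower in SNI + G15 (log2 fold change -0.23 ± 0.08, edgeR adjusted p = 0.0389), but 11 of 16 alternative fits lost this call, DESeq2 among them (adjusted p = 0.0513).

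Per2 (NCBI gene 63840), a core repressor and the member with the fewest fragments per length, was not called in any comparison. Its libraries lay between 1.06 and 1.24 FPKM in sham, between 1.19 and 1.22 after SNI and between 1.15 and 1.37 with G15, and the groups overlapped. The log2 fold changes were 0.04 ± 0.10, 0.09 ± 0.10 and 0.11 ± 0.11 in the 3 comparisons (edgeR adjusted p = 0.752, 0.536 and 0.444). The 95% interval for SNI + G15 against SNI, by a normal approximation, ran from -0.09 to 0.28, so a fall of the size seen in Nr1d1 lies outside it. Only 117 to 152 estimated reads per library stood behind these values, and they were not whole in any library.

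Per3 (NCBI gene 78962), a less essential Period gene with a strong rhythm in many tissues, was at 2.29, 1.94 and 2.74 FPKM in sham and 2.42, 2.20 and 2.43 FPKM in SNI. It was at 1.70, 1.79 and 1.28 FPKM in SNI + G15. Every SNI + G15 library was below every other library. Per3 fell by 31.6% against SNI (log2 fold change -0.55 ± 0.13, edgeR adjusted p = 0.0254) and by 31.6% against sham (-0.55 ± 0.15, adjusted p = 0.0166). The first call was lost when any 1 of the 3 SNI libraries was left out (edgeR adjusted p between 0.0580 and 0.103), and the second when sham library 3 was left out (0.0738). Counts were low, at 99 to 207 estimated reads per library. The log2 fold change in SNI against sham was 0.02 ± 0.11 (edgeR adjusted p = 0.884).

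Of the cryptochromes, which hold ARNTL and CLOCK in check together with the Period proteins, Cry2 (NCBI gene 170917) was lower after injury and Cry1 (NCBI gene 299691) was not called in any comparison. Cry2 was at 24.93, 25.18 and 25.60 FPKM in sham and at 21.30, 22.07 and 21.64 FPKM in SNI. In SNI + G15 it was at 21.59, 21.83 and 21.30 FPKM. The sham libraries stood above all injured libraries, and the injured groups overlapped almost wholly. Cry2 fell by 15.9% in SNI (log2 fold change -0.25 ± 0.04, edgeR adjusted p = 0.000431) and by 16.8% in SNI + G15 against sham (-0.26 ± 0.05, adjusted p = 0.00160), and neither call was lost in any of 16 alternative fits. Between the injured groups its log2 fold change was 0.01 ± 0.04, with a 95% interval from -0.07 to 0.09. The coefficient of variation of Cry2 within a group was only 1.23 to 1.78%, but its estimated counts were not whole in any library.

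Cry1 ranged from 2.43 to 2.85 FPKM in sham, from 2.15 to 2.68 after SNI and from 2.44 to 2.73 with G15, and all groups overlapped. Its log2 fold changes were -0.16 ± 0.11, 0.14 ± 0.11 and -0.04 ± 0.10 in the 3 comparisons (edgeR adjusted p = 0.283, 0.398 and 0.760).

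Dbp (NCBI gene 24309) encodes a PAR bZIP factor that binds D-boxes and is driven from E-boxes, which gives it one of the widest daily swings in liver and other tissues. It was at 9.72, 9.21 and 11.11 FPKM in sham and 9.14, 9.95 and 9.0 FPKM in SNI. In SNI + G15 it was at 6.73, 7.62 and 8.36 FPKM. The SNI + G15 libraries lay below all others and sham and SNI overlapped. Dbp fell by 29.2% in SNI + G15 against sham (log2 fold change -0.50 ± 0.10, edgeR adjusted p = 0.00326), a call that held in all 16 alternative fits. Against SNI its log2 fold change was -0.24 ± 0.09 (edgeR adjusted p = 0.0892); this was called when SNI + G15 library 3 was left out (0.0194) and with the offset for gene length (0.0298).

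In SNI against sham Dbp was called lower on counts (log2 fold change -0.23 ± 0.08, edgeR adjusted p = 0.0409), but 11 of 16 alternative fits lost the call, including DESeq2 (adjusted p = 0.123). On log2(FPKM + 1), limma gave -0.09 (adjusted p = 0.369). The FPKM of Dbp depend on the transcript model to which its reads were assigned: models other than the main one took 0 to 3.0% of the Dbp reads in the sham libraries, 15.6 to 34.0% in those of SNI and 3.18 to 21.7% with G15. These shares rest on 204 to 342 estimated reads per library for the whole gene.

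A comparable shift of assigned reads was seen in Arntl, for which the files hold 8 transcript models. One model, chosen after its values were seen, took 0 to 10.2% of the Arntl reads in the sham libraries, 0 to 0.06% in those of SNI and 14.5 to 39.4% with G15. Group means of Arntl were 7.02 ± 0.33 FPKM in sham and 8.57 ± 0.46 in SNI + G15 (SD, n = 3), and estimated reads ran from 341 to 374 in sham and from 419 to 445 in SNI + G15, so the groups were apart on both scales. The assignment of short reads to models that share most of their exons is uncertain.

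The ratio of Dbp to Arntl within a library does not depend on how libraries are scaled, and in a rhythmic tissue it sets the opposite arms of the loop against each other. On FPKM the log2 ratio was 0.42, 0.37 and 0.74 in the sham libraries (mean 0.51 ± 0.20, SD, n = 3). It was 0.40, 0.46 and 0.19 in SNI (mean 0.35 ± 0.14) and -0.44, -0.13 and 0.01 in SNI + G15 (mean -0.18 ± 0.23). On FPKM sham and SNI overlapped and SNI + G15 lay below both. On CPM, counts scaled for library size only, which leave transcript length in, all 3 group means were below 0, at -0.24 ± 0.21, -0.53 ± 0.10 and -0.95 ± 0.19, so the sign has no meaning across scales. On this scale the sham (-0.38 to 0.0042) and SNI libraries (-0.63 to -0.44) did not overlap either. The SNI + G15 group was lowest on both scales. The ratio is described without a test.

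**Figure D3:**
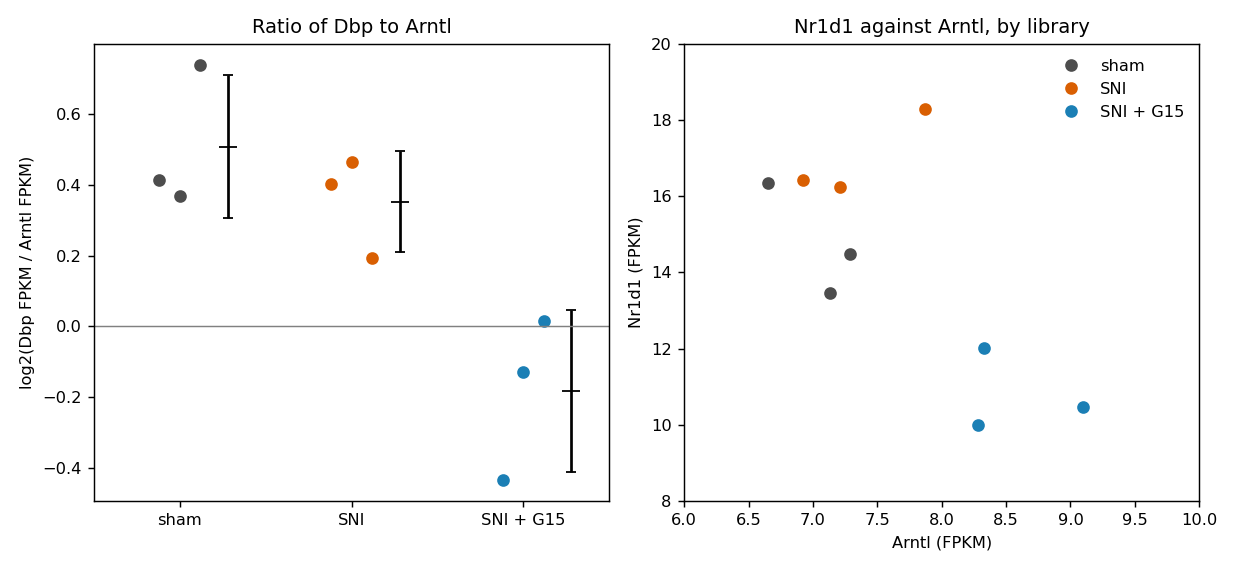
Left, log2 ratio of Dbp FPKM to Arntl FPKM in each library (points) with the group mean ± SD (black), right, Nr1d1 FPKM against Arntl FPKM in each library. The SNI + G15 libraries have ratios from -0.44 to 0.01, below the 0.19 to 0.74 of the other groups, and stand alone at high Arntl (8.28 to 9.10 FPKM) and low Nr1d1 (9.99 to 12.01 FPKM).

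The members other than Arntl and Clock did not all move in the same direction. No time series was available, so whether their phases differ in this tissue was not tested. Between SNI + G15 and SNI, Per1, Per2 and Cry1 had positive log2 fold changes (0.09, 0.09 and 0.14, none called) and Cry2 was near 0, while Per3, Nr1d1, Nr1d2 and Dbp had negative ones. Within groups the order of the libraries is given as measured. Any gene has a highest and a lowest of 3 libraries, and how often all genes share the same library was not counted. Among the sham libraries, library 3 was the highest for Per1, Per2, Per3, Cry2, Nr1d1 and Dbp and the lowest for Arntl and Nr1d2. Among the SNI libraries, library 3 was the highest for Arntl, Clock, Per1, Per3, Cry1 and Nr1d1 and the lowest for Dbp. Among the SNI + G15 libraries, library 3 was the highest for Dbp and Per2 and the lowest for Arntl, Clock, Per1, Per3, Cry1, Cry2 and Nr1d1. The ratio of the highest to the lowest library within a group ran from 1.02 for Cry2 in SNI + G15 to 1.41 for Per3 in sham. The hour at which single rats were killed was not given in the sources used here.

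Around the members, 36 further genes of the clock pathway were grouped by role, and 30 of them passed the filter. In SNI against sham, 13 of the 30 were called, 10 higher and 3 lower (43.3%, beside 45.7% of all genes). Between the injured groups 4 were called, 1 higher and 3 lower (13.3%, beside 15.2%). Comparing SNI + G15 with sham, 13 were called, 7 higher and 6 lower (43.3%, beside 43.2%). In each comparison the share was close to that of all genes. The 30 include Npas2 and Arntl2, which passed the filter only through injured libraries, and Ciart, which passed only through sham.

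Npas2, which can take the place of CLOCK, is itself repressed by REV-ERB. It was at 0.68, 0.62 and 0.41 FPKM in sham, 0.69, 0.89 and 0.98 in SNI and 1.05, 0.95 and 1.06 in SNI + G15. It reached 1 FPKM only in SNI + G15 libraries and so passed the filter through the group in which it was highest. In the fit without a filter its log2 fold change was 0.81 in SNI + G15 against sham (edgeR adjusted p = 0.00826) and 0.28 against SNI (adjusted p = 0.298). Arntl2, a paralogue of Arntl, was at 0.55 to 0.88 FPKM in sham, 1.36 to 2.08 after SNI and 1.10 to 1.46 with G15, and passed the filter only through injured libraries. Without the filter its log2 fold change was 1.19 in SNI against sham (edgeR adjusted p = 0.00256) and -0.37 in SNI + G15 against SNI (adjusted p = 0.297). Rora, which encodes an activating receptor at ROR elements, was below the filter, at 0.56 to 0.75 FPKM in all 9 libraries.

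The D-box factors other than DBP changed with injury. Nfil3, a repressor at D-boxes whose own gene is repressed by REV-ERB, ranged from 2.27 to 2.71 FPKM in sham, from 7.89 to 9.66 after SNI and from 9.10 to 9.28 with G15. It rose by 1.74 ± 0.11 on the log2 scale in SNI against sham (edgeR adjusted p = 4.44e-07) and by 1.82 ± 0.09 in SNI + G15 against sham (3.33e-07). The injured groups did not differ beyond their spread (0.10 ± 0.08, edgeR adjusted p = 0.432). Tef, an activator of the same family as Dbp, went the other way, with 18.6 to 20.0 FPKM in sham, 16.2 to 17.3 after SNI and 14.8 to 16.2 with G15 (log2 fold change -0.22 ± 0.05 in SNI against sham, edgeR adjusted p = 0.00308). Hlf, another activator of the family, was below the filter at 0.40 to 0.87 FPKM; in the fit without a filter its log2 fold change in SNI against sham was -0.79 ± 0.15 (edgeR adjusted p = 0.00189).

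Bhlhe40 and Bhlhe41, repressors that compete at E-boxes and respond to stress and hypoxia, rose in SNI against sham by 0.43 ± 0.10 and 0.37 ± 0.05 on the log2 scale (edgeR adjusted p = 0.00549 and 0.000232). Neither was called between SNI + G15 and SNI (-0.27 ± 0.10 and -0.09 ± 0.04, edgeR adjusted p = 0.0910 and 0.195). Ciart, a repressor with a wide daily swing, was not called in any comparison and varied widely within groups, at 0.46 to 1.30 FPKM in sham and 0.19 to 0.92 with G15. Cipc, which binds CLOCK, was not called, and Timeless was below the filter. Of the kinases that mark PER and CRY for destruction or storage, Csnk1e rose with injury (0.31 ± 0.05, edgeR adjusted p = 0.000452), as did Prkaa2 (0.18 ± 0.06, adjusted p = 0.0225).

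Gsk3b, Prkaa1 and Prkaa2 fell with G15 after injury, with log2 fold changes of -0.26, -0.23 and -0.25 (edgeR adjusted p = 0.0115, 0.0150 and 0.0206). Calls over all genes in this comparison fell from 2179 to 1098, 925 and 893 without SNI library 1, 2 and 3. With a library left out the estimates ran from -0.29 to -0.21 (Gsk3b), -0.26 to -0.19 (Prkaa1) and -0.29 to -0.20 (Prkaa2). The call of Gsk3b was lost without SNI library 2 or 3 (edgeR adjusted p = 0.0623 and 0.0621), and that of Prkaa1 without any 1 of the 3 (0.0508 to 0.0727). Prkaa2 lost its call without any 1 of them (0.0735 to 0.0794), with the replicate block (0.0546) and with the length offset (0.160). Sfpq and Nono, which encode partners of PER proteins, rose with injury by 0.49 and 0.22 on the log2 scale (edgeR adjusted p = 2.82e-05 and 0.00116). Nono was 0.13 higher with G15 than in SNI (adjusted p = 0.0482), a call that 10 of 16 alternative fits lost. Kdm5a, a histone demethylase that acts with CLOCK and ARNTL, rose by 0.27 with injury (edgeR adjusted p = 0.00273).

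In the ubiquitin pathway, Usp2, a deubiquitinase with a daily rhythm, fell with injury by 0.31 on the log2 scale (edgeR adjusted p = 0.0103), and Skp1, a core part of SCF ubiquitin ligases, by 0.18 (0.0127). Cul1, their scaffold, was lower in SNI + G15 than in sham (-0.18, edgeR adjusted p = 0.0247). Fbxl21, an F-box protein that binds CRY, was below the filter, and in the fit without one its log2 fold change in that comparison was -0.64 (edgeR adjusted p = 0.0168).

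**Figure D4:**
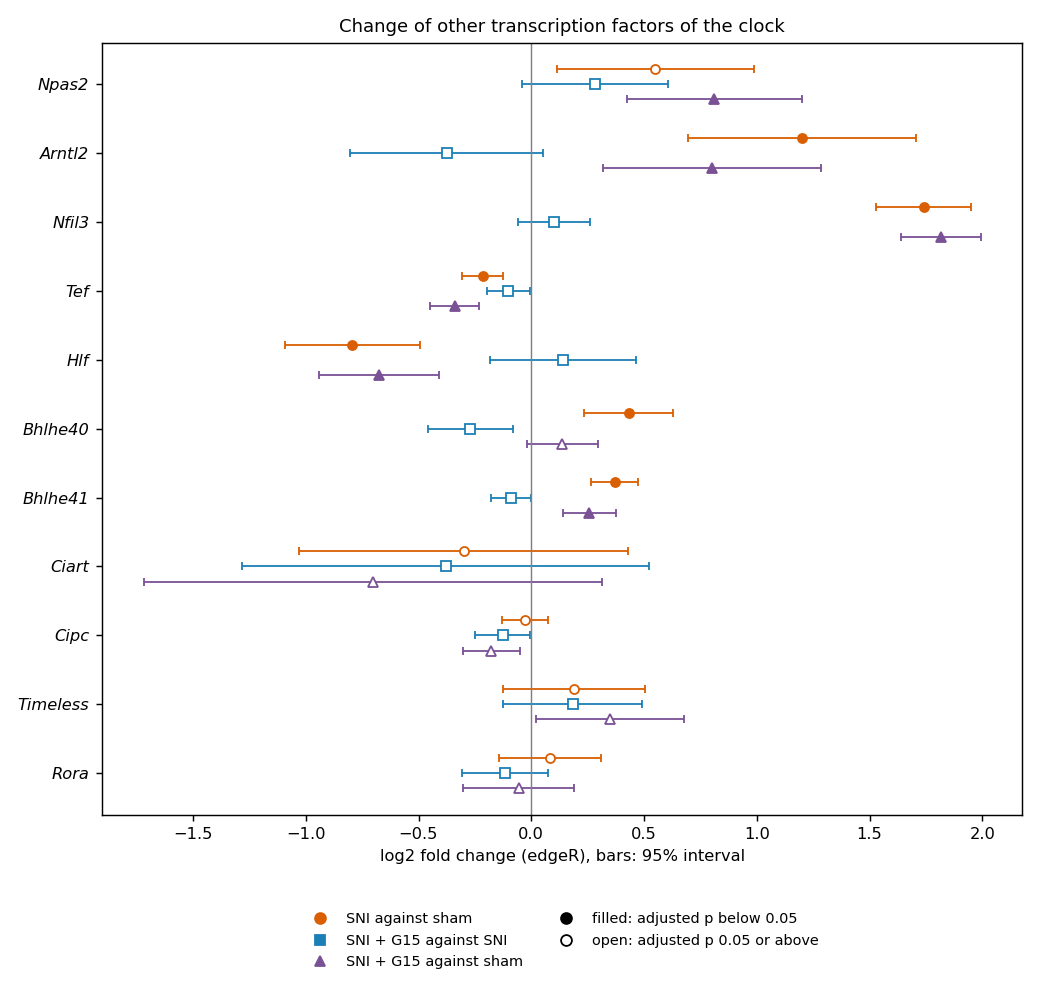
Log2 fold change of 11 other transcription factors and regulators of the clock (horizontal axis) in the 3 comparisons, from edgeR, with 95% intervals as bars; filled symbols have an adjusted p below 0.05. Nfil3 stands apart at 1.74 and 1.82 in both comparisons with sham, and no gene shown is called between SNI + G15 and SNI. Npas2, Arntl2 and Ciart are drawn from the fit with the filter, which Npas2 and Arntl2 passed only through injured libraries and Ciart only through sham. Genes below the filter are drawn from the fit without one.

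Peripheral clocks take time cues from circulating glucocorticoids, and Per1 is itself a glucocorticoid target, so a list of 11 glucocorticoid-response genes was set beside the members. This list and that of the immediate early genes were chosen with earlier results of these data known. Their shares of called genes are therefore description only. In SNI against sham 8 of the 11 were called, 4 higher and 4 lower, where 45.7% of all genes were called, and the median log2 fold change was -0.10. With G15 against SNI, 6 were called, all higher, with a median of 0.18, where 7.98% of all genes were called higher. Zbtb16, a transcription factor strongly induced by glucocorticoids in many cells, was at 3.69, 3.26 and 3.81 FPKM in sham and 1.31, 1.22 and 1.39 in SNI. In SNI + G15 it was at 2.94, 3.06 and 3.70 FPKM, which overlapped sham. It fell by 1.47 ± 0.08 on the log2 scale with injury (edgeR adjusted p = 1.83e-07) and was 1.32 ± 0.11 higher in SNI + G15 than in SNI (0.000160). Fkbp5, a co-chaperone of the glucocorticoid receptor, took the same course, falling by 0.39 ± 0.05 (edgeR adjusted p = 0.000125) and standing 0.42 ± 0.06 higher with G15 (0.00336).

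Tsc22d3, Ddit4, Mt2A and Cdkn1a were the other genes of this list called higher in SNI + G15 than in SNI, with log2 fold changes of 0.18, 0.28, 0.73 and 0.46 (edgeR adjusted p = 0.0365, 0.00505, 0.00396 and 0.00104). Mt2A and Cdkn1a had already risen with injury, by 0.98 and 1.98. Klf9, Sgk1, Dusp1 and Errfi1 were not called between these groups, nor was the receptor gene Nr3c1. Per1 had fallen with injury, as had 4 of the 11 listed genes, Zbtb16 and Fkbp5 among them, while 4 had risen. The log2 fold change of Per1 with G15 was 0.09 and was not called. Of the listed CREB-related and immediate early genes, 7 of 9 tested rose with injury, beside 23.3% of all genes. In SNI + G15 against SNI 4 of 9 rose, beside 7.98%. Fos rose by 2.04 and then by 0.52 (edgeR adjusted p = 2.41e-07 and 0.00656), and Junb by 1.03 and then by 0.55 (3.62e-07 and 0.000336). Crem, a cyclic AMP-responsive factor, rose by 1.09 and then by 0.28 (edgeR adjusted p = 7.94e-07 and 0.0122). Dusp1, which stands in both lists, rose by 0.85 with injury (edgeR adjusted p = 3.28e-07). The part of glucocorticoid or immediate early signals in the members' levels was not tested.

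**Figure D5:**
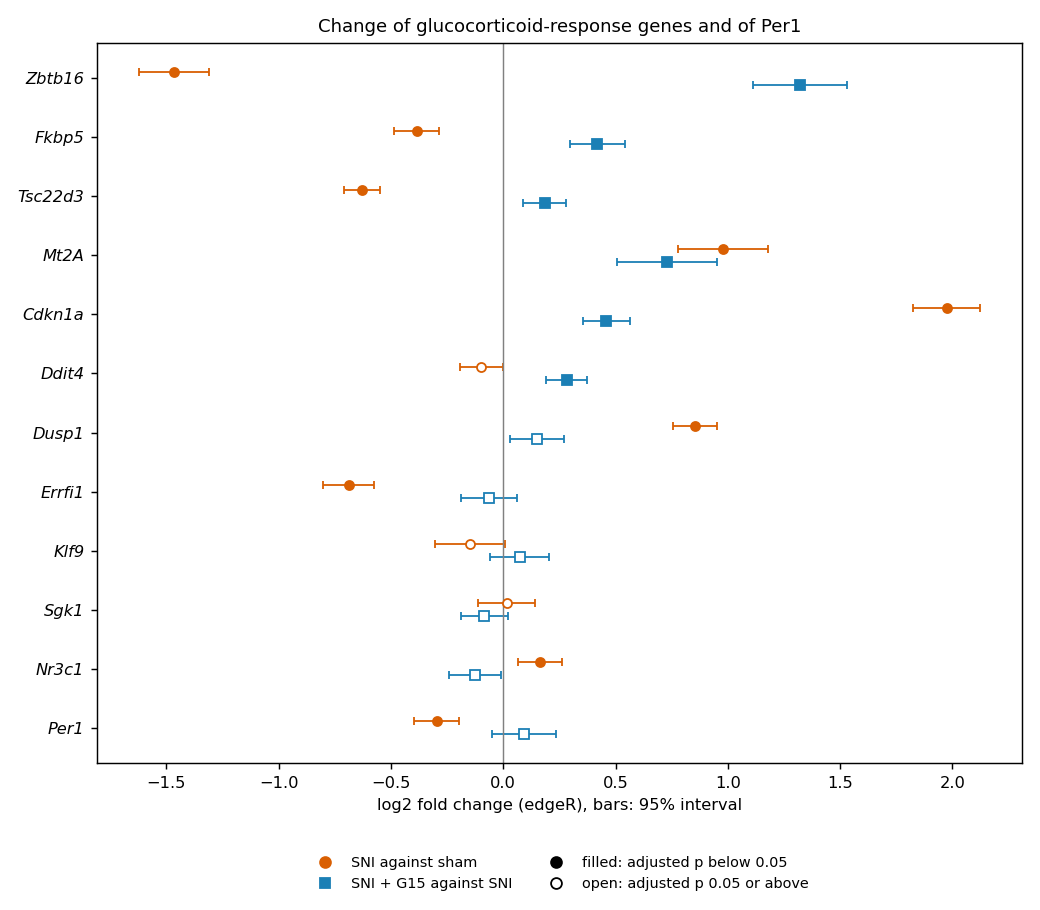
Log2 fold change of the 11 glucocorticoid-response genes and Per1 (horizontal axis) for injury (SNI against sham) and for G15 (SNI + G15 against SNI), from edgeR, with 95% intervals as bars; filled symbols have an adjusted p below 0.05. Zbtb16 and Fkbp5 lie left of 0 for injury (-1.47 and -0.39) and right of 0 for G15 (1.32 and 0.42), while Per1 lies left of 0 for injury only (-0.30).

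Of 7 genes with known clock-driven output, 6 passed the filter. Wee1, a cell cycle kinase with an E-box promoter, was 19.3% lower in SNI than in sham (log2 fold change -0.31 ± 0.06, edgeR adjusted p = 0.00222) and was not called between SNI + G15 and SNI (0.02 ± 0.07, adjusted p = 0.874). In that comparison 2 of the 6 were called, both higher, where 7.98% of all genes were: Cdkn1a and Tsc22d3, which are also in the glucocorticoid list above.

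Cell type markers moved with both comparisons and are given as measured. In SNI against sham, 6 of 7 macrophage markers rose (summed FPKM 121 to 131 in sham and 272 to 291 in SNI). Of the Schwann cell markers 4 of 6 fell (5274 to 5397 and 2981 to 3042). Of the neuronal markers 6 of 9 fell and 2 rose. Among erythroid markers Alas2, Hbb and Ahsp rose, and the call of Slc4a1 is not counted because it passed the filter only through injured libraries. In this comparison 22.4% of all genes were called lower and 23.3% higher. With G15 against SNI, 7.98% of all genes were called higher and 7.25% lower. Here 6 of 6 fibroblast markers rose (summed FPKM 450 to 452 without and 606 to 630 with it). The erythroid markers Alas2, Hbb and Ahsp fell, and the call of Slc4a1 is again not counted (summed FPKM of all 4 was 301 to 310 and 182 to 219). Schwann cell markers were higher in 4 of 6 cases, macrophage markers in 2 of 7, and neuronal markers in 1 of 9, with 1 of 9 lower. Satellite glia markers were called in 3 of 4 cases (1 higher and 2 lower, summed FPKM 223 to 235 in SNI and 261 to 280 with G15) and endothelial markers in 2 of 5 (1 in each direction). The 4 T cell markers passed the filter only through injured libraries, with summed FPKM of 1.57 to 2.42 in sham, 3.68 to 4.46 after SNI and 3.09 to 4.11 with G15, so their calls are not counted. These sums cover opposite changes between SNI + G15 and SNI. Without the filter the log2 fold changes were -1.69 for Cd3e, -2.39 for Cd3d, -0.90 for Cd3g and 0.89 for Cd8a (edgeR adjusted p = 0.00828, 0.0346, 0.264 and 0.0119). Cd3d had only 1 to 3 reads per library with G15. None of the 3 muscle and 3 oligodendrocyte markers tested was called in this comparison, in which 15.2% of all genes were. Their part in the fall of Nr1d1, Nr1d2 and Per3 was not tested.

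The genes whose profiles over the 9 libraries were most like 4 of the members were found by the mean absolute difference of log2(FPKM + 1) after centring each gene, among 14304 other genes. For Nr1d1 the nearest named genes were Cdh6 and Stc1, with mean differences of 0.07 and 0.08, where Nr1d1 itself deviated by 0.24 from its own mean. Stc1 had group means of 1.41, 1.78 and 0.867 FPKM in sham, SNI and SNI + G15. For Dbp they were Ly6e, Slc25a12 and Rnf150 (0.06 each), for Arntl Pkd2 and Colec12 (0.03 each), and for Per1 Sulf2, Tspan15 and Ptpn13 (0.03 each). No other clock gene was among the 3 nearest of any of these 4 members.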

How the data were processed

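RNA-Seq of 9 DRG libraries was analysed from the tables deposited by the authors. These hold estimated counts for genes and transcripts, before any normalization and often fractional, and FPKM values, which the authors scaled for library size and transcript length. The aligner is not given in the sources used here, and the labels name the mouse builds GRCm38 and mm10 although the gene identifiers are those of rat. The labels' extraction protocol also names another cell type and library kit than the study's methods. Columns with a control name were taken as the sham libraries of the same number, the remaining titles.

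After rounding, counts were compared by the two-sided quasi-likelihood test of edgeR 4.0.16 with TMM factors in R 4.3.3, using the libraries of the groups compared and the genes that reached 1 FPKM in any library. Standard errors are the absolute log2 fold change divided by the square root of F. Values for genes below the filter come from a fit without one. As alternatives, DESeq2 1.42.0, limma 3.58.1 on log2(FPKM + 1) and log2(FPKM + 0.1), changed scaling or filters, a joint fit of the 9 libraries, blocking by replicate number and leaving out single libraries were run. The script was tested on simulated data. Named were the members, clock factors, the genes with the smallest adjusted p of each further list (up to 3), overlapping genes and the nearest profiles, and other genes named in counts of called genes were chosen after their values were seen. The members and gene lists were chosen with earlier results of these data known. Deposited TPM, group averages and the authors' own comparisons (fold changes and p-values) were not used.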

Additional observations from a re-analysis of the deposited data

How the results depend on the processing

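Over the alternative fits, Cry2 and Per1 in SNI against sham, Nr1d1 in SNI + G15 against SNI, and Nr1d1, Nr1d2, Dbp and Cry2 in SNI + G15 against sham kept their calls in every one. Of 480 values of the members under alternatives, 429 kept direction and side of the threshold, 33 lost a call, 7 gained one and 11 changed sign, none of these called. The cause was not tested where a call changed. With 3 libraries per group and 99 to 207 reads for Per3, small changes could not be seen.

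Clock genes called higher in SNI against sham numbered 0, and 0 to 1 when a library was left out (1 without sham library 1 or 3, or SNI library 1). Clock genes called in SNI + G15 against SNI, all lower, numbered 1 to 4 when a library was left out, with 1 without SNI library 2 or 3. All genes called there numbered 893 to 2333, with 1098, 925 and 893 without SNI library 1, 2 and 3, and the other pathway genes called 0 to 5. Clock genes called in SNI + G15 against sham numbered 4 to 6 when a library was left out (4 without sham library 3), and those called higher 0 to 1, 0 with DESeq2 and 2 with a length offset, an alternative chosen after seeing the data. The Dbp to Arntl log2 ratio on CPM was -0.24 in sham, -0.53 in SNI and -0.95 in SNI + G15; it was 0.39 to 0.58, 0.30 to 0.43 and -0.28 to -0.057 on FPKM when a library was left out.

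Values that changed sign under an alternative, none of them called, were these log2 fold changes. For SNI against sham, Cipc was 0.00028 and 0.00030 with limma and -0.058 to 0.011 with a library left out, and Gsk3b was -0.0028 with the length offset and -0.0029 to 0.091 with a library left out. With a library left out, Per2 was -0.011 to 0.10, Per3 -0.066 to 0.16 and Prkaa1 -0.082 to 0.014. For SNI + G15 against SNI, limma gave Cry2 -0.0061 and -0.0063, Csnk1e -0.039 and -0.040, and Wee1 -0.0067 and -0.0080, and the length offset gave Clock 0.091 and Kdm5a 0.018. With a library left out, Ciart was -0.79 to 0.042, Clock -0.099 to 0.0080, Cry2 -0.0028 to 0.020, Usp2 -0.050 to 0.062 and Wee1 -0.025 to 0.060. For SNI + G15 against sham, Prkaa2 was 0.022 with the length offset, and with a library left out Cry1 was -0.097 to 0.030 and Fkbp5 -0.032 to 0.056.

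Libraries of the same number did not deviate together: the 9 correlations between groups ran from -0.13 to 0.069, and 2, 0 and 2 of 6 libraries correlated best with their own number in the 3 comparisons. Over all genes no pairing by number was seen. Whether libraries of the same number shared a handling step that moved few genes was not tested. Blocking by number (replicate block) left 1292 genes and 2 other pathway genes called between SNI + G15 and SNI, clock genes called higher in SNI against sham numbered 1 (Nr1d1), and among the members Dbp in SNI against sham and Per1 in SNI + G15 against sham were not called (edgeR adjusted p = 0.0511 and 0.0710).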
